A study of Mus musculus with 8 samples.

Results

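The genes described here are 39 type I interferon stimulated genes, taken by symbol from the deposited count table of mouse bone marrow myeloid cells. All 39 were found among 24062 gene rows, and none of them was lost to the filter on low counts, which kept 13197 genes. The list was drawn up by gene name, and guanylate-binding, Slfn, Ifi200 and Parp genes were left out of it. RNA-seq was done on immature myeloid cells (IMCs) grown from the marrow of C57BL/6 mice aged 2 months, cultured for 3 days in 40 ng/mL macrophage colony-stimulating factor (M-CSF). PARP1CKO cells came from PARP1 flox/flox mice that also carried the lysozyme-Cre transgene, and PARP2CKO cells from PARP2 flox/flox mice with the same Cre. PARP1 WT and PARP2 WT cells carried the floxed alleles with no Cre, so every group carried floxed alleles of 1 PARP gene, and no group had the Cre alone. Each of the 4 groups had 2 libraries, described as biological duplicates but with no mouse named, so p-values measure the spread between these libraries. Lysozyme-Cre acts in macrophages, granulocytes and their precursors, and cells of other lineages left in the culture keep the floxed gene.

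Type I interferons bind the IFNAR receptor, and the receptor's kinases JAK1 and TYK2 phosphorylate transcription factors that include STAT2. STAT2 joins IRF9 in a complex that binds the interferon-stimulated response element in the promoters of antiviral genes. IRF7 and other interferon stimulated genes also feed back on interferon production, and myeloid cells express many of the sensors that start the response. Macrophages keep a low level of these genes in the absence of infection through a small constant release of interferon beta.

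Promoter stretches are shown for 7 of the 10 members in which the core of the interferon-stimulated response element was found before the start of the gene. The sequences are RefSeq promoters on GRCm38.p6, and 32 of the 39 members matched an entry. Oas2, Mx1, Mx2, Usp18, Rtp4, Dhx58 and Zbp1 did not. Each stretch below is 60 bases long and lies before the start of the gene, read 5′ to 3′ on the gene's strand. Capitals mark the core of the response element, which is GAAA, then 2 bases of any kind, then GAAA, or its reverse complement with TTTC at both ends.
Isg15: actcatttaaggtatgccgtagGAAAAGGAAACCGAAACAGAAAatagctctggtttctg
Ifit1: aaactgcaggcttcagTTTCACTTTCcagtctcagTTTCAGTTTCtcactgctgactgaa
Ifit3: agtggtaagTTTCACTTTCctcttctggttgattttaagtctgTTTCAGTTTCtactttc
Rsad2: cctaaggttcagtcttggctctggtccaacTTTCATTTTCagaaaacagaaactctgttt
Oas1a: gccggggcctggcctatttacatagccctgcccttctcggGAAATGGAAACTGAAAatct
Oas1g: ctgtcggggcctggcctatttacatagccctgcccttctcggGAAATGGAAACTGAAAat
Oas3: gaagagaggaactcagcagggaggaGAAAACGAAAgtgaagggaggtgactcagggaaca

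The Isg15 stretch lies on the minus strand at chr4:156200859-156200918, and the Rsad2 stretch on the minus strand at chr12:26456543-26456602. The Ifit1 and Ifit3 stretches are on the plus strand at chr19:34640769-34640828 and chr19:34583364-34583423. The OAS stretches are on the minus strand, at chr5:120907526-120907585 for Oas1a, chr5:120887614-120887673 for Oas1g and chr5:120777700-120777759 for Oas3. Isg15 held 3 overlapping matches and Oas1a and Oas1g held 2 overlapping matches each, so the runs of capitals are longer than the motif there. In the 250 bases before the start, the core was found on either strand in 10 of 32 member genes (31.2%) and in 936 of 27025 genes with a promoter entry (3.46%). The other members with a match were Bst2, Stat2 and Trim30a. The gamma-activated site, searched as TTCNNNGAA on both strands, was found in 7 of the 32 (21.9%) and in 8.13% of all genes. Matched letters describe the sequence and do not show that a factor was bound there.

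Total counts per library ranged from 37852450 to 61845125. Parp1 was lower in PARP1CKO than in PARP1 WT (log2 fold change -1.75, SE 0.178, edgeR adjusted p = 0.0134). It was at 202 and 211 CPM (counts scaled to a library of 1000000) in the PARP1 WT libraries and 63.2 and 59.1 CPM in PARP1CKO, compared with 251 and 155 in the PARP2 WT libraries and 263 and 264 in PARP2CKO, so PARP2 WT replicate 2 stood below the other 3 PARP2 floxed libraries. Parp2 was lower in PARP2CKO than in PARP2 WT (-0.91, SE 0.0453, adjusted p = 0.000139). Markers of the labelled cells were present at a high level. The summed level of 8 monocyte and macrophage markers was 4450 to 5210 CPM over the 8 libraries, and that of 7 neutrophil lineage markers was 2620 to 3470 CPM. Ly6g was not found in the table. Small amounts of other cells were also seen, with 28.3 to 41.2 CPM for 5 B cell markers in the PARP1 floxed libraries and 7.74 to 11.1 CPM in the PARP2 floxed libraries. In bulk RNA, fewer cells of a type cannot be told apart from less RNA per cell.

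Together the 39 genes took 0.13% to 0.223% of the counts of a library. Levels between genes are compared here as CPM per kilobase of exon. Ifitm3, a membrane protein that blocks virus entry, had the highest mean level at 118 CPM per kilobase, followed by Lgals3bp, a secreted galectin ligand, at 90.0 and Bst2, the tetherin that holds budding virions, at 80.4. Trim25 (38.6) and Samhd1 (37.7) came next. Neighbours in this order overlapped in their library ranges for most genes: Lgals3bp spanned 73.4 to 116 and Bst2 71.7 to 98.9. Isg15 at 6.44 and Rsad2 at 4.46 CPM per kilobase ranked 22 and 24 of the 39, Ifit1 at 2.88 and Ifit3 at 2.25 ranked 30 and 33, and the lowest were Mx1 (1.85), Zbp1 (1.64), Isg20 (1.42), Mx2 (0.618) and Ifi44 (0.251). Ifi44 rested on 9 to 87 counts per library and Mx2 on 35 to 144, the lowest counts of the list. Isg15, Isg20, Mx1, Ifi44, Samhd1 and Trim25 were singled out after their values were seen.

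The 8 libraries differed in the level of the whole list. For each gene, log2 CPM was set against its mean over the 8 libraries, and the median of these deviations over the 39 members was taken for each library. In the PARP1 floxed line it was 0.391 in WT replicate 1, -0.0404 in WT replicate 2, 0.19 in CKO replicate 1 and 0.716 in CKO replicate 2. In the PARP2 floxed line the values in the same order were -0.264, -0.184, -0.517 and -0.305. PARP1CKO replicate 2 stood highest, PARP2CKO replicate 1 lowest, and the 2 PARP1CKO libraries lay on opposite sides of PARP1 WT replicate 1. PARP1CKO replicate 2 had the highest CPM of the 8 libraries for 38 of the 39 members, against 18.0% of all genes tested. The exception was Trim25, which was highest in PARP1CKO replicate 1. PARP2CKO replicate 1 had the lowest CPM for 31 members, against 17.4% of all genes tested.

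**Figure D1:**
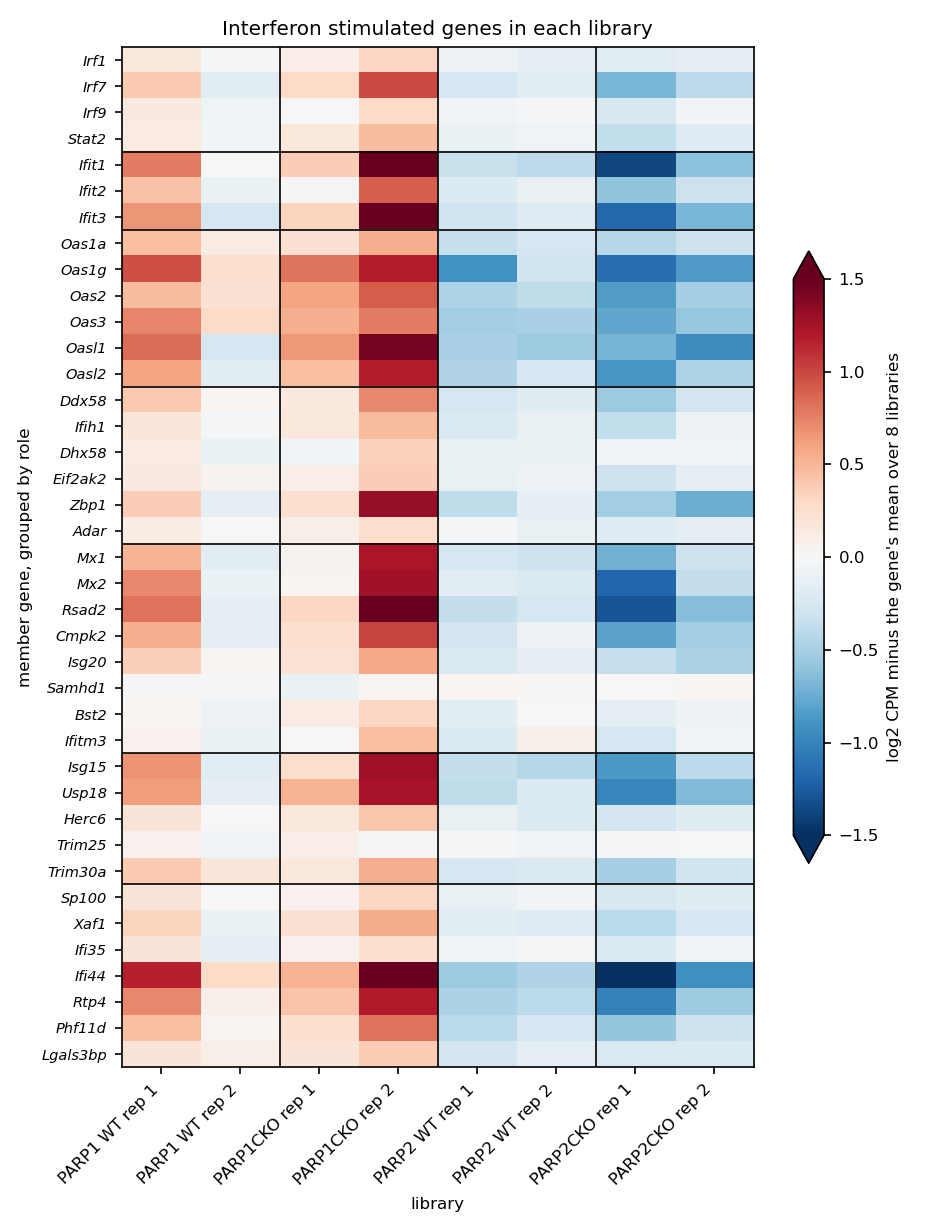
Level of each of the 39 members (rows, grouped by role between the horizontal lines) in each of the 8 libraries (columns), as log2 CPM minus the mean of that gene over all 8 libraries; red is above and blue is below that mean, and colours saturate at 1.5. The column of PARP1CKO replicate 2 is the reddest, with 38 members at their highest, and Samhd1 and Trim25 are near white in every library.

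The fold between the lowest and the highest library was largest for 4 of the 39 members. Ifi44 differed 12.7-fold, Ifit1 7.7-fold, Rsad2 7.37-fold and Ifit3 6.99-fold between PARP1CKO replicate 2 and PARP2CKO replicate 1. At the other end, Trim25, an E3 ligase that acts on RIG-I, differed 1.11-fold and Samhd1, a dNTP hydrolase that limits retroviral replication, 1.1-fold over the 8 libraries.

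The IFIT proteins bind foreign RNA and block its translation. Ifit1 (chr19:34640871-34650009, gene positions being from GENCODE on GRCm38) was at 10.9 and 6.35 CPM in the PARP1 WT libraries, 8.25 and 19.1 in the PARP1CKO libraries, 5.08 and 4.88 in the PARP2 WT libraries and 2.48 and 4.16 in the PARP2CKO libraries, giving replicate 1 before replicate 2 here and throughout. Ifit3 (chr19:34583531-34588731) was at 5.25 and 2.76 CPM in the PARP1 WT libraries and 4.18 and 10.2 in PARP1CKO, compared with 2.68 and 2.88 in the PARP2 WT libraries and 1.46 and 2.05 in PARP2CKO. For both genes the PARP1CKO libraries lay on either side of PARP1 WT replicate 1, and both PARP2CKO libraries lay below both PARP2 WT libraries. Ifit2, in the same cluster, ranged from 7.85 CPM in PARP2CKO replicate 1 to 22.1 CPM in PARP1CKO replicate 2. Reads shared by near-identical genes may have been counted more than once in this table, since Hba-a1 and Hba-a2, an unrelated pair of near-identical genes, had the same count in all 8 libraries. The value of Ifit3, which has a close paralog beside it, is uncertain to that extent.

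The OAS enzymes make short oligoadenylates that switch on RNase L once they bind double-stranded RNA. Oas3 (chr5:120753098-120777661) was at 81.6 and 59.9 CPM (WT) and 71.5 and 83.4 CPM (CKO) in the PARP1 floxed line, and at 34.5 and 34.9 CPM (WT) and 28.5 and 33.1 CPM (CKO) in the PARP2 floxed line. Oas2 (chr5:120730333-120749853) was at 47.3 and 40.3 CPM in the PARP1 WT libraries and 51.9 and 64.5 in PARP1CKO, compared with 24.9 and 26.4 in the PARP2 WT libraries and 19.3 and 24.3 in PARP2CKO. For both, every PARP1 floxed library was above every PARP2 floxed library, an order that 9.93% of all genes tested had. Oas1a (chr5:120896256-120907521) was at 35.3 and 28.1 CPM (WT) and 30.2 and 37.8 CPM (CKO) in the PARP1 floxed line, and at 20.3 and 21.7 CPM (WT) and 19.2 and 20.6 CPM (CKO) in the PARP2 floxed line. Its near copy Oas1g (chr5:120876142-120887613) was at 7.08 and 4.33, 6.32 and 8.23, 1.94 and 2.96, and 1.66 and 2.01 CPM in the same order. Again the groups of the floxed lines did not overlap. The Oas1a and Oas1g promoters shared an unbroken run of 56 bases in the 250 before the start, and how reads common to these genes were counted is not given in the sources used here, so the values of Oas1a and Oas1g are uncertain. Oasl1, an inhibitor of Irf7 translation, was at 8.09 and 3.79 CPM in the PARP1 WT libraries and 7.08 and 12.2 in PARP1CKO, compared with 3.23 and 3.11 in the PARP2 WT libraries and 2.78 and 2.36 in PARP2CKO. Oasl2 was at 40.7 and 24.0 CPM (WT) and 36.9 and 61.2 CPM (CKO) in the PARP1 floxed line, and at 19.8 and 22.6 CPM (WT) and 14.7 and 19.6 CPM (CKO) in the PARP2 floxed line. PARP1 WT replicate 1 was above PARP1CKO replicate 1 for both OAS-like genes.

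**Figure D2:**
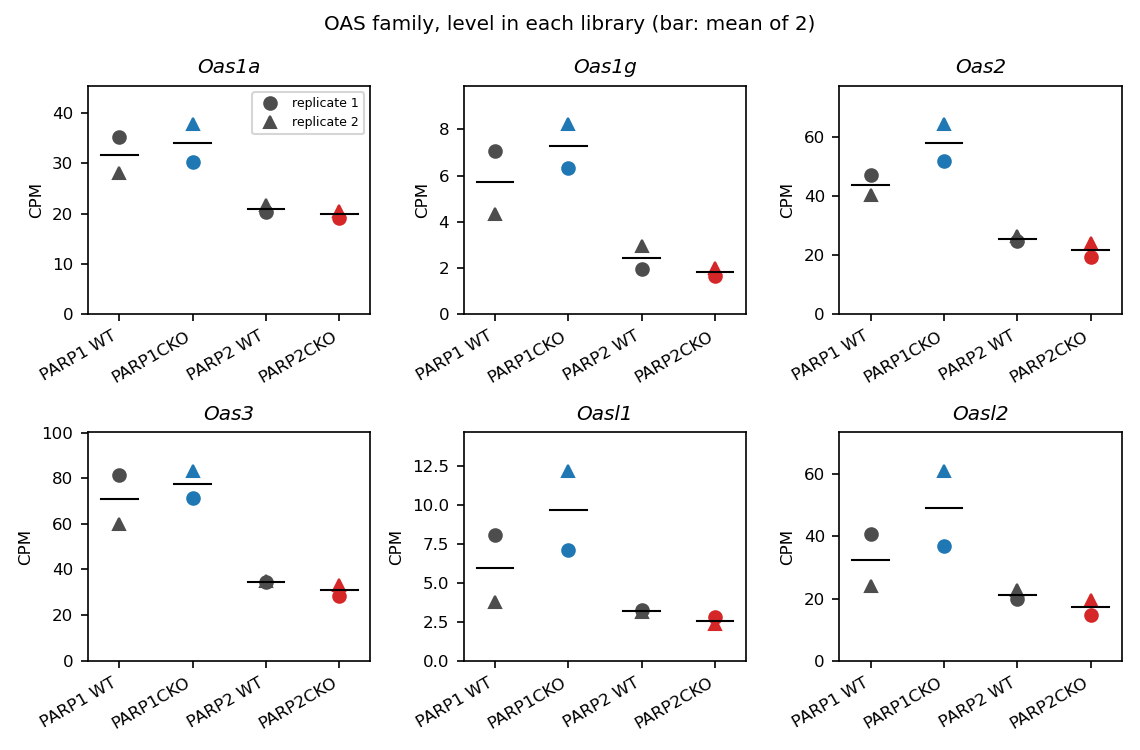
CPM of the 6 OAS family members in each library (circle, replicate 1; triangle, replicate 2; bar, mean of the 2 libraries), with 1 panel per gene and a vertical axis that starts at 0. In each panel all 4 PARP1 floxed libraries sit above all 4 PARP2 floxed libraries, as for Oas3 at 59.9 to 83.4 against 28.5 to 34.9 CPM. Of all genes tested, 9.93% had this order.

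Among the transcription factors, Stat2 acts with IRF9 in the complex named above, and Irf7 amplifies interferon alpha production. Stat2 was at 85.1 and 75.7 CPM in the PARP1 WT libraries and 87.0 and 107 in PARP1CKO, compared with 72.4 and 75.2 in the PARP2 WT libraries and 60.5 and 68.3 in PARP2CKO. Irf7 was at 21.7 and 14.7 CPM (WT) and 20.3 and 32.9 CPM (CKO) in the PARP1 floxed line, and at 13.9 and 14.7 CPM (WT) and 10.3 and 12.6 CPM (CKO) in the PARP2 floxed line. Both PARP1CKO libraries were above both PARP1 WT libraries for Stat2, but not for Irf7. Irf1 and Irf9 varied less, from 23.9 to 33.5 CPM and from 36.8 to 53.4 CPM over the 8 libraries.

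Among the sensors of foreign nucleic acid, Zbp1, which binds Z-form nucleic acid and can start necroptosis, was at 4.14 and 2.9 CPM in the PARP1 WT libraries and 3.81 and 7.92 in PARP1CKO, compared with 2.46 and 2.94 in the PARP2 WT libraries and 2.23 and 1.91 in PARP2CKO. Eif2ak2, the kinase PKR that stops translation on double-stranded RNA, was at 76.6 and 72.4 CPM (WT) and 74.6 and 90.1 CPM (CKO) in the PARP1 floxed line, and at 64.3 and 65.4 CPM (WT) and 56.1 and 63.1 CPM (CKO) in the PARP2 floxed line. In both genes the high value of PARP1CKO was carried by replicate 2. The RNA helicases Ddx58 (RIG-I) and Ifih1 (MDA5) ranged from 25.4 to 61.0 and from 19.7 to 35.4 CPM, and the regulator Dhx58 (LGP2) from 19.2 to 26.5 CPM.

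Rsad2 (viperin) and Cmpk2 are neighbouring genes on chromosome 12 whose enzymes act together to make a chain-terminating nucleotide. Rsad2 was at 24.7 and 12.7 CPM in the PARP1 WT libraries and 17.5 and 42.4 in PARP1CKO, compared with 11.0 and 11.7 in the PARP2 WT libraries and 5.75 and 9.05 in PARP2CKO. Cmpk2 was at 15.2 and 9.53 CPM (WT) and 12.4 and 21.1 CPM (CKO) in the PARP1 floxed line, and at 8.65 and 9.92 CPM (WT) and 5.97 and 7.27 CPM (CKO) in the PARP2 floxed line. The pair had the same order of libraries in the PARP1 floxed line, with PARP1CKO replicate 2 and PARP1 WT replicate 1 on top. Bst2 was at 64.7 and 59.6 CPM in the PARP1 WT libraries and 68.7 and 78.3 in PARP1CKO, compared with 56.8 and 63.0 in the PARP2 WT libraries and 57.8 and 60.3 in PARP2CKO, so that only PARP1CKO stood apart. The dynamin-like GTPase Mx2, annotated as a polymorphic pseudogene, was at 2.2 and 1.25 CPM (WT) and 1.37 and 3.19 CPM (CKO) in the PARP1 floxed line, and at 1.19 and 1.15 CPM (WT) and 0.587 and 1.04 CPM (CKO) in the PARP2 floxed line.

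ISG15 is a ubiquitin-like protein, and USP18 removes it from its targets and also dampens signalling at the receptor. Usp18 was at 8.45 and 4.92 CPM in the PARP1 WT libraries and 7.85 and 12.9 in PARP1CKO, compared with 4.2 and 4.71 in the PARP2 WT libraries and 2.77 and 3.44 in PARP2CKO. Isg15 was at 6.98 and 3.87, 5.23 and 10.5, 3.41 and 3.23, and 2.4 and 3.33 CPM in the same order. Usp18 followed the library order of the list as a whole, and Isg15 did so in the PARP1 floxed line. Trim30a, a TRIM protein with close paralogs beside it, was at 97.7 and 84.2 CPM (WT) and 83.0 and 109 CPM (CKO) in the PARP1 floxed line, and at 62.0 and 64.2 CPM (WT) and 52.6 and 60.6 CPM (CKO) in the PARP2 floxed line.

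Of the remaining members, Lgals3bp was at 237 and 220 CPM in the PARP1 WT libraries and 236 and 270 in PARP1CKO, compared with 171 and 189 in the PARP2 WT libraries and 177 and 178 in PARP2CKO. Rtp4, a chaperone of membrane receptors, was at 25.3 and 16.2 CPM (WT) and 20.7 and 35.0 CPM (CKO) in the PARP1 floxed line, and at 11.0 and 11.6 CPM (WT) and 7.61 and 10.6 CPM (CKO) in the PARP2 floxed line. The floxed lines did not overlap for either gene, nor for Phf11d, a PHD finger gene with near copies beside it, which was at 6.67 to 11.4 CPM in the PARP1 floxed libraries and 4.31 to 5.36 CPM in the PARP2 floxed libraries. Sp100, a component of nuclear bodies, was at 73.3 to 90.8 CPM in the PARP1 floxed libraries and 62.0 to 70.9 CPM in the PARP2 floxed libraries. The order with every PARP1 floxed library above every PARP2 floxed library was that of 9.93% of all genes tested.

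The question of the PARP1CKO comparison was whether loss of PARP1 in myeloid cells alters gene expression. Higher mean levels were fitted in PARP1CKO for 38 of 39 members, where 52.1% of all genes tested were higher, but none passed the test. The median log2 fold change of the members was 0.269, with a range from -0.03 (Samhd1) to 0.85 (Ifit3), while the median of all genes tested was 0.00586. No member was called by the edgeR quasi-likelihood test at an adjusted p of 0.05, against 0.106% of all genes tested, and the smallest adjusted p was 0.3. DESeq2 called none either, against 0.754% of the genes to which it gave an adjusted p. At an unadjusted p under 0.05 there were 6 members, all higher, where 6.11% of all genes were higher at that level: Bst2, Oas2, Stat2, Irf7, Zbp1 and Usp18. With 2 libraries against 2, an exact permutation test of a single gene cannot go below p = 0.333.

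Oas2 had a log2 fold change of 0.41 (SE 0.127, adjusted p = 0.3), Bst2 of 0.24 (SE 0.0745, adjusted p = 0.3) and Stat2 of 0.27 (SE 0.0979, adjusted p = 0.371) in PARP1CKO. These 3 were also the members whose PARP1CKO libraries were both above both PARP1 WT libraries, a pattern that 21.0% of all genes tested had. The largest fold changes, of Ifit3 (0.85, SE 0.404), Zbp1 (0.74, SE 0.314), Oasl1 (0.71, SE 0.33), Rsad2 (0.69, SE 0.406) and Ifit1 (0.67, SE 0.381), did not exceed the spread of the replicates: the groups overlapped for all 5. By role, the median log2 fold change was 0.67 for the IFIT family, 0.39 for the OAS family, 0.34 for direct antiviral effectors, 0.21 for transcription factors and 0.2 for nucleic acid sensors.

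The median rested on single libraries. Without PARP1CKO replicate 2 it was 0.0155, with 24 members higher and 15 lower, and Ifit1 (-0.05) and Rsad2 (-0.08) changed sign. Without PARP1 WT replicate 2 it was 0.0993, while without PARP1 WT replicate 1 or PARP1CKO replicate 1 it was 0.42 and 0.477. PARP1CKO replicate 1 was above PARP1 WT replicate 1 for 4 of the 39 members and above PARP1 WT replicate 2 for 37.

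In the PARP2CKO comparison, which asked the same of PARP2, lower mean levels were fitted for 37 of 39 members, where 50.7% of all genes tested were lower, and again none passed the test. The median log2 fold change was -0.192, from -0.86 (Ifi44) to 0.06 (Dhx58), against a median of -0.0014 over all genes tested. The edgeR quasi-likelihood test called no member, against 0.0530% of all genes tested, with a smallest adjusted p of 0.954. It found no member at an unadjusted p under 0.05 where 4.83% of all genes were, and DESeq2, which had 2 at that level against 2.87% of all genes, called none, against 0.205%. Both PARP2CKO libraries lay below both PARP2 WT libraries for 24 members, against 18.8% of all genes tested, and above them for Dhx58 and Trim25, against 18.4%. Among members at 1 CPM or more on average, the larger changes were those of Ifit3 (-0.68, SE 0.456), Rsad2 (-0.63, SE 0.448), Ifit1 (-0.6, SE 0.433), Mx2 (-0.56, SE 0.466) and Usp18 (-0.53, SE 0.304). The smallest unadjusted p-values belonged to Stat2 (log2 fold change -0.2, SE 0.0983, unadjusted p = 0.0766 by edgeR), Cmpk2 (-0.49, SE 0.278, unadjusted p = 0.112) and Oas2 (-0.24, SE 0.134, unadjusted p = 0.113). Without PARP2CKO replicate 1 the median was -0.07, with 32 members lower, and without PARP2CKO replicate 2 it was -0.264. Without PARP2 WT replicate 2, the library with less Parp1, it was -0.16.

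**Figure D3:**
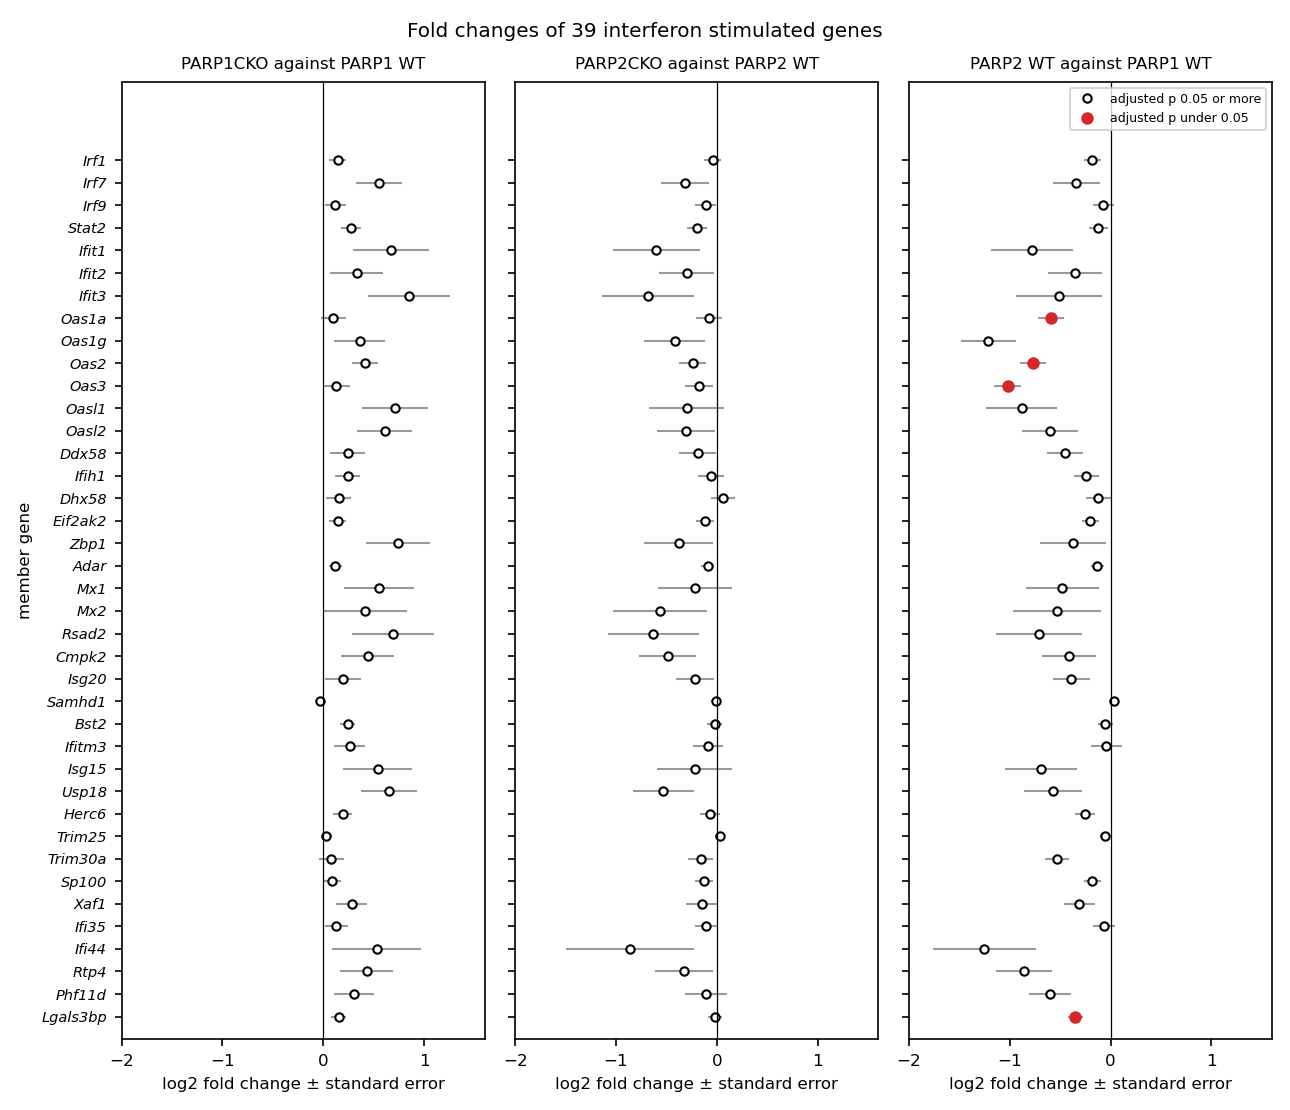
Log2 fold change of each member with its standard error (horizontal lines) for PARP1CKO (left panel) and PARP2CKO (middle panel), each against the WT of its line, and for PARP2 WT against PARP1 WT (right panel), from the edgeR fit over 8 libraries; filled points have an adjusted p under 0.05. In the PARP1CKO panel 38 of 39 points are right of 0 and in the PARP2CKO panel 37 are left of it, none of them filled, while 4 points are filled in the panel of the WT lines.

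The difference of the deletion effects (PARP2CKO effect minus PARP1CKO effect) was tested directly. It was negative for 38 of 39 members and for 52.2% of all genes tested, with a median of -0.427 on the log2 scale against -0.00699 for all genes tested. None was called by the edgeR quasi-likelihood test, against 0.0152% of all genes, and the smallest adjusted p was 0.562. At an unadjusted p under 0.05 there were 9 members, all negative, where 4.09% of all genes were negative at that level. Oas2 (-0.65, SE 0.184, adjusted p = 0.562) and Stat2 (-0.47, SE 0.139, adjusted p = 0.568) had the smallest p-values, and DESeq2 called 1 member, Oas2, against 0.362% of the genes to which it gave an adjusted p. Over the alternatives the adjusted p of Oas2 ran from 0.0491 to 0.949. Among members at 1 CPM or more on average, the largest differences were those of Ifit3 (-1.53, SE 0.609), Rsad2 (-1.32, SE 0.604) and Ifit1 (-1.27, SE 0.577). Without PARP1CKO replicate 2 the median was -0.166, without PARP1 WT replicate 2 it was -0.249 and without PARP2 WT replicate 2 it was -0.38. Opposite orders in the lines, with both PARP1CKO libraries above and both PARP2CKO libraries below their WT, were seen for 2 members, Oas2 and Stat2, near the background of 3.32% of all genes tested.

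The lines without Cre differed. In PARP2 WT, 4 members were lower than in PARP1 WT by the edgeR quasi-likelihood test, against 1.24% of all genes tested, and none was higher. In either direction the test called 3.16% of all genes. They were Oas3 (log2 fold change -1.02, SE 0.137, adjusted p = 0.00703), Oas2 (-0.77, SE 0.131, adjusted p = 0.0187), Lgals3bp (-0.35, SE 0.0727, adjusted p = 0.0408) and Oas1a (-0.59, SE 0.125, adjusted p = 0.0431). Oas1g (-1.21, SE 0.274, adjusted p = 0.0513) and Trim30a (-0.53, SE 0.123, adjusted p = 0.0577) were just outside the threshold. The next members by p were Rtp4 (-0.86, SE 0.276, adjusted p = 0.142) and Phf11d (-0.6, SE 0.205, adjusted p = 0.169). Of the 6 OAS family members, 3 were lower by this test and the other 3, Oas1g, Oasl1 (-0.88, SE 0.354) and Oasl2 (-0.6, SE 0.281), did not pass. At an unadjusted p under 0.05 there were 13 members, all lower, where 8.63% of all genes were lower at that level.

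The median log2 fold change of the members between the WT lines was -0.386, against 0.00131 for all genes tested, and 38 of 39 members were lower, as were 49.6% of all genes. Both PARP2 WT libraries were below both PARP1 WT libraries for 30 members, against 25.2% of all genes, and above them for 1, Samhd1, against 26.7%. With the CKO libraries included, all 4 PARP1 floxed libraries were above all 4 PARP2 floxed libraries for 29 of the 39 members, against 9.93% of all genes tested, and below them for none, against 10.5%. The 10 members without this order were Ifit3, Irf9, Cmpk2, Ifi35, Dhx58, Bst2, Trim25, Zbp1, Ifitm3 and Samhd1. Without PARP1 WT replicate 1 the median was -0.143 and 1 member, Oas3, was called. Oas3 was also the only member called without PARP2 WT replicate 1 and without PARP2 WT replicate 2, where the medians were -0.321 and -0.458, and without PARP1 WT replicate 2 the median was -0.619. The line, the floxed gene and any difference in the time or litter of the cultures cannot be told apart in this design.

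Markers of other cell types differed between the WT lines, and their sums also differed between the libraries of a line. All 5 B cell markers tested fell in PARP2 WT against PARP1 WT, with log2 fold changes from -1.92 (Ebf1, adjusted p = 0.0299) to -1.19 (Cd79b, adjusted p = 0.00703). The edgeR test called all 5 lower, where 1.24% of all genes tested were called lower. All 5 erythroid markers tested were fitted lower, and those called were Hba-a1 and Hba-a2 (log2 fold change -1.31, adjusted p = 0.0126 for each), which have the same counts and so are 1 measurement. Hba-a1 and Hba-a2 were nevertheless counted as 2 markers in the sums, counts and medians of the erythroid list given here. The erythroid markers summed to 5.94 and 4.98 CPM in the PARP1 WT libraries and 8.27 and 10.1 in PARP1CKO, compared with 2.65 and 2.48 in the PARP2 WT libraries and 2.05 and 2.15 in PARP2CKO. The summed level of the B cell markers was 33.2 and 28.3 CPM in the PARP1 WT libraries and 29.8 and 41.2 in PARP1CKO, compared with 11.1 and 9.09 in the PARP2 WT libraries and 7.74 and 10.7 in PARP2CKO, so PARP1CKO replicate 2 was highest and PARP2CKO replicate 1 lowest here, as for the erythroid markers and the interferon stimulated genes. The markers of plasmacytoid dendritic cells, which release much type I interferon, summed to 61.4 to 68.4 CPM in the PARP1 floxed libraries and 48.2 to 55.2 CPM in the PARP2 floxed libraries, also with PARP1CKO replicate 2 highest and PARP2CKO replicate 1 lowest. Most of that sum was Tcf4, at 41.8 to 50 CPM over the 8 libraries. The other 5 markers summed to 12.2 to 18.5 CPM in the PARP1 floxed libraries and 6.37 to 10.2 CPM in the PARP2 floxed libraries, with the same libraries highest and lowest. None of the 5 tested was called in any of the 4 comparisons. Between the WT lines all 5 were fitted lower in PARP2 WT (median -0.45 on the log2 scale), and 2 had an unadjusted p under 0.05, where 8.63% of all genes were lower at that level: Ccr9 (-0.88, SE 0.271, adjusted p = 0.129) and Tcf4 (-0.13, SE 0.0439, adjusted p = 0.166). Basophil and mast cell markers summed to 13.6 to 19.2 and 7.44 to 11.7 CPM in the lines, with none of 5 called between the WT lines. All 5 were fitted lower in PARP2 WT (median -0.73 on the log2 scale). Of these, 4 had an unadjusted p under 0.05, where 8.63% of all genes were lower at that level. T and NK cell markers summed to 1.34 to 3.5 CPM over all libraries, and most of that sum was Cd4, at 1.16 to 2.85 CPM. Only Cd4 and Cd8a of that list passed the filter on low counts, and Cd3e, Cd3g, Ncr1 and Klrb1c did not. Monocyte and macrophage markers were at 4450 to 4770 and 4730 to 5210 CPM in the lines, with 1 of 8 called, higher in PARP2 WT, and 1 of 7 neutrophil lineage markers was also called higher. In either direction 3.16% of all genes tested were called between the WT lines. Markers of other dendritic cells were at 27.0 to 39.5 CPM over all libraries, with none of 5 called. Itgax, which macrophages also express, was the largest part of that sum in every library, at 13.8 to 29.2 CPM, and was fitted higher in PARP2 WT (0.33, SE 0.14, adjusted p = 0.242), while the other 4 were fitted lower, as for Cd209a (-0.88, SE 0.222, adjusted p = 0.0744), and the median of the 5 was -0.52. At an unadjusted p under 0.05 were Cd209a, Xcr1 and Itgax, where 2497 of all 13197 genes tested were at that level in either direction. In the deletion comparisons no marker of these lists was called. In PARP1CKO all 5 tested of the erythroid (median log2 fold change 0.83), B cell (0.27) and plasmacytoid dendritic cell (0.29) lists were fitted higher, as were Cd4 and Cd8a, the T and NK cell markers tested (0.47). All 5 of the basophil and mast cell list (-0.18) and all 5 of the other dendritic cell list (-0.26) were fitted lower there, and 5 of 8 monocyte and macrophage (0.01) and 2 of 7 neutrophil lineage markers (-0.07) higher. In PARP2CKO 1 of 5 erythroid (-0.32), 1 of 5 B cell (-0.18), 0 of 5 plasmacytoid dendritic cell (-0.16), 0 of 5 basophil and mast cell (-0.48) and 0 of 2 T and NK cell markers (-0.53) were fitted higher. So were 3 of 5 other dendritic cell (0.02), 6 of 8 monocyte and macrophage (0.08) and 1 of 7 neutrophil lineage markers (-0.13). For the difference of the deletion effects no marker of these lists was called. None was positive in the erythroid (median -1.07), B cell (-0.39), plasmacytoid dendritic cell (-0.4), basophil and mast cell (-0.22) and T and NK cell (-1) lists. Positive were 4 of 5 other dendritic cell (0.08), 6 of 8 monocyte and macrophage (0.09) and 1 of 7 neutrophil lineage markers (-0.06). The part of these other cells in the levels of the interferon stimulated genes was not tested.

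**Figure D4:**
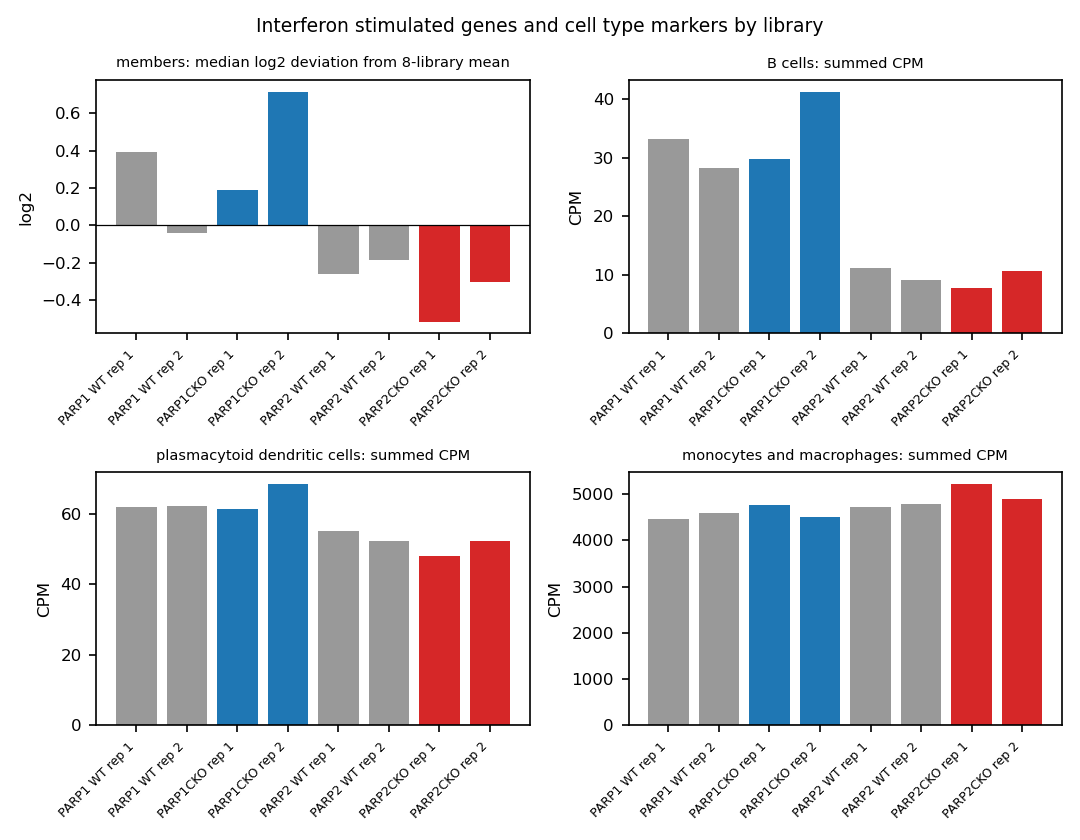
For each library (bars; grey, WT; blue, PARP1CKO; red, PARP2CKO), the median log2 deviation of the 39 members from their 8-library means, and the summed CPM of the B cell, plasmacytoid dendritic cell and monocyte and macrophage markers. PARP1CKO replicate 2 has the highest bar in the first 3 panels, at 0.716, 41.2 CPM and 68.4 CPM, the plasmacytoid dendritic cell sum is mostly Tcf4, and the monocyte and macrophage sums span 4450 to 5210 CPM.

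The members moved together between the libraries of 1 group. In PARP1 WT all 39 members were lower in replicate 2 than in replicate 1, with a median log2 difference of -0.362, and in PARP1CKO 38 of 39 were higher in replicate 2, with a median of 0.393. In PARP2 WT 28 members were higher in replicate 2 (median 0.0688), and in PARP2CKO 36 were (median 0.214). Among all genes tested, 49% to 51.2% were higher in replicate 2 and the median difference was between -0.00297 and 0.003. Members that differed by more than 1 on the log2 scale numbered 7 in PARP1CKO, against 1.42% of all genes, and 1 in PARP1 WT, against 1.44%. The difference within PARP1 WT and that within PARP1CKO were both larger than the median fold change of 0.269 between these groups.

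**Figure D5:**
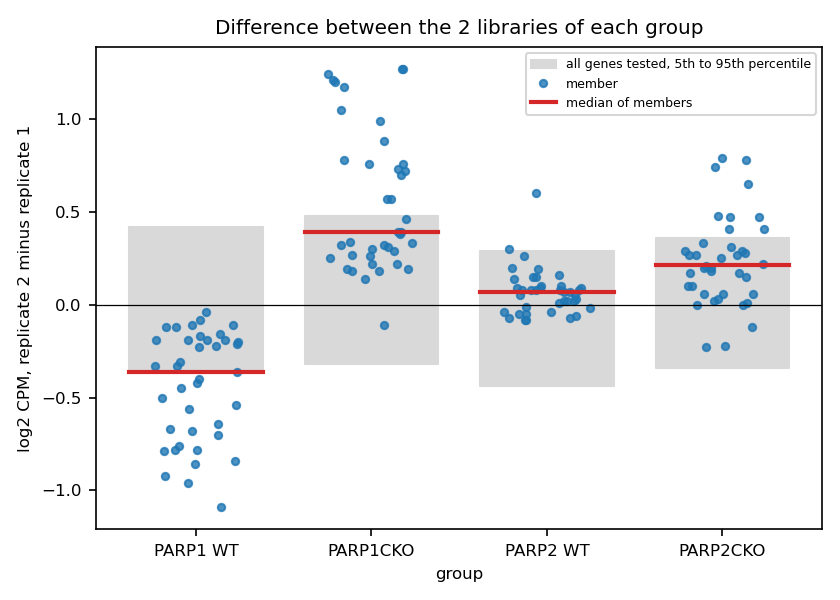
Log2 CPM of replicate 2 minus replicate 1 for each member (blue points) in the 4 groups, with the median of the members (red line) and the span from the 5th to the 95th percentile of all 13197 genes tested (grey). All 39 points lie below 0 in PARP1 WT and 38 lie above 0 in PARP1CKO, with medians of -0.362 and 0.393.

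Of 36 other genes of the interferon pathway, all were in the table and 29 were tested. Of the 7 interferon genes looked up, none had enough counts to be tested: 5 had no count in any library, Ifnb1 had 1 count in 1 library and Ifng had 1 count in each of 3. A count of 0 allows up to 3 counts in a library, so transcripts of these genes below that were not detectable at this depth. In PARP1CKO and in PARP2CKO none of the 29 was called by edgeR, with 3 and 0 at an unadjusted p under 0.05 where 11.3% and 4.83% of all genes were, and their median log2 fold changes were 0.03 and -0.01. None was called in the difference of the deletion effects either, with 2 at an unadjusted p under 0.05 where 7.69% of all genes were. Between the WT lines 1 of 29 was higher in PARP2 WT and 1 lower, where 3.16% of all genes were called. The higher gene was Ikbke (0.25, SE 0.0546, adjusted p = 0.0443), a kinase of IRF3 and IRF7, and the lower was Tmem173 (-0.28, SE 0.0605, adjusted p = 0.0449), which encodes STING, the adaptor of cytosolic DNA sensing. The receptor genes Ifnar1, Ifnar2, Ifngr1 and Ifngr2 and the kinase genes Jak1, Jak2 and Tyk2 were not called in any of the 4 comparisons.

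Some members overlap other annotated genes. Exons of Adar, which edits double-stranded RNA, overlap Chrnb2 on the opposite strand over at least 16.9% of their length. Ifi35 overlaps Gm11626 on the opposite strand over at least 10.9%, and Rtp4 overlaps Gm45338 on the same strand over at least 9.4%. Each share is that of the single exon of the other gene with the largest overlap. Whether the counting used the strand is not given in the sources used here, so reads in these stretches cannot be assigned with certainty.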

How the data were processed

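The authors sequenced single-end reads from stranded total RNA libraries, trimmed them, aligned them to mm10 with TopHat2 2.0.12, marked duplicates with Picard 1.127 and counted reads per gene with featureCounts. They deposited a table of raw counts per gene for the 8 libraries. The annotation, the strand setting and the treatment of duplicates and shared reads are not given in the sources used here.

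From these counts, edgeR 4.0.16 (R 4.3.3) was fitted to all 8 libraries with a mean per group, after filterByExpr and TMM scaling. Quasi-likelihood tests were made for the 4 comparisons, with Benjamini-Hochberg adjustment over all 13197 genes and a threshold of 0.05. The standard error of a log2 fold change was taken as its size divided by the square root of F. CPM are counts scaled to 1000000 in the TMM-adjusted library size, and log2 CPM used a prior count of 2. Libraries of the same group differed by a chi-square of 8.56 to 12.9 per gene. This value is measured against counting noise only, and it also holds any other difference between the libraries. No conclusion on the agreement of separate libraries was drawn from it. DESeq2 1.42.0 was an alternative. The procedure was tested on simulated data, with changes set in PARP1CKO only. Those changes were larger than the members' median fold changes, so recovery of changes as small as these medians was not tested. Exon lengths, positions and overlaps came from GENCODE M21 on GRCm38, promoters from RefSeq.

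The 39 members and the pathway and marker lists were chosen with earlier results of these data known. CPM, per library or as a range, were given for members called in any comparison and for those selected in each. Selected were the 8 smallest p and the 5 largest fold changes among those at 1 CPM or more on average. Fold changes were printed for only some of them. Pathway genes were named with values when called, and 1 pathway gene is not reported here. Markers were looked up by symbol, with Emr1 for Adgre1.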

Additional observations from a re-analysis of the deposited data

Results flagged for a closer look

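Oas2 and Stat2 were the members for which both PARP1CKO libraries lay above both PARP1 WT libraries while both PARP2CKO libraries lay below both PARP2 WT libraries. Of all genes tested 3.32% had this pattern, and 2 of 39 members is near that share. The PARP2CKO effect minus the PARP1CKO effect was -0.65 (SE 0.184) for Oas2 and -0.47 (SE 0.139) for Stat2 on the log2 scale. The test of that difference gave adjusted p = 0.562 and 0.568 by edgeR's quasi-likelihood test over all genes, so neither passed. Without PARP1CKO replicate 2 the differences were -0.48 and -0.31. With 2 libraries in a group, no test for a single outlying library was made.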

How the results depend on the processing

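The counts of members called in PARP1CKO and in PARP2CKO were 0 under every alternative run. For the difference of the deletion effects the count was 1 (Oas2) with DESeq2 and 0 otherwise. Between the WT lines it was 4 with DESeq2 size factors and with a minimum of 1 CPM in 2 libraries, 5 with the libraries of the comparison only, 6 with DESeq2, 7 with the likelihood-ratio test, 8 with no filter on low counts and 2 (Oas2 and Oas3) with the replicate number as a block. Leaving out each library in turn gave 1 to 6, with 2 without either PARP2CKO library, and Oas3 was called in each of these fits. The cause of these changes was not tested. The members' median log2 fold change ran from 0.0155 to 0.477 for PARP1CKO, from -0.264 to -0.07 for PARP2CKO, from -0.611 to -0.166 for the difference of the effects and from -0.619 to -0.143 for the WT lines when a library was left out, and the other alternatives moved it little (0.263 to 0.27, -0.194 to -0.187, -0.428 to -0.413 and -0.392 to -0.382). Signs changed in 6 of the values of named members, each with a library left out and none of them called. In PARP1CKO, with a library left out, Oas1a ran from -0.07 (without PARP1CKO replicate 2; -0.06 without PARP1 WT replicate 2) to 0.27, Oas3 from -0.08 (without PARP1 WT replicate 2) to 0.37, Ifit1 from -0.05 to 1.16 and Rsad2 from -0.08 to 1.23 (both lowest without PARP1CKO replicate 2). In PARP2CKO, Lgals3bp ran from -0.09 to 0.06 (without PARP2 WT replicate 2). A group left with 1 library was assumed to vary like the others. Libraries share a replicate number only, and the deviations of same-numbered libraries correlated at -0.133 (PARP1) and 0.147 (PARP2). With the block the medians were 0.263, -0.194, -0.413 and -0.386, and the replicate block left the calls in the other 3 comparisons at 0.

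Counts per member were 9 or more in every library, so depth limits mainly Ifi44 and Mx2, while 2 libraries per group limit all members.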

Other observations

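The genes next to Oas2 on chromosome 5 were looked at after the OAS values were seen. Rasal1 (chr5:120648812-120679597), a Ras GTPase activating protein, had a log2 fold change of -1.19 (SE 0.272, adjusted p = 0.0545 by edgeR) in PARP2 WT against PARP1 WT, and its neighbour Dtx1 (chr5:120680202-120711927), a regulator of Notch signalling, of -1.25 (SE 0.402, adjusted p = 0.143). Both rested on few counts, 21 to 47 for Rasal1 and 9 to 66 for Dtx1 per library. Oas1c and Oas1b, which lie between Oas3 and Oas1g, had log2 fold changes of -0.31 (SE 0.133, adjusted p = 0.253) and -0.33 (SE 0.223, adjusted p = 0.471). None of these 4 passed the test.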
